A study of Mus musculus with 2 samples.

Results

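The 46 genes described here encode heterogeneous nuclear ribonucleoproteins (hnRNPs) and related regulators of splicing, chosen by name from the 45578 genes of the deposited table. They comprised 18 hnRNP genes, 15 regulators known mainly from neurons (Ptbp2, Elavl2 to Elavl4, Celf3 to Celf6, Rbfox1, Rbfox3, Nova1, Nova2, Khdrbs2, Khdrbs3 and Srrm4) and 13 other broadly expressed regulators. The footprints of all annotated transcripts of a gene were summed. The genes were found by symbol, and all 46 passed the filter of a mean count of at least 10. The lowest was Khdrbs2, with a mean of 124 footprints.

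Ribosome-protected fragments were sequenced from the polysomes of whole brains of 2 control mice at postnatal day 5. Both animals had the genotype Smn+/-; SMN2tg/0 on an FVB background, so each carried 1 disrupted mouse Smn allele and a human SMN2 transgene, and they formed the only group. The strain is a model of spinal muscular atrophy, in which these heterozygous animals serve as controls, and a whole brain mixes neurons, glia and vessels. Replicate 1 held 1866831 footprints and replicate 2 held 5261878, a ratio of 2.82.

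hnRNPs coat nascent transcripts and, with the SR proteins that they often oppose, decide which exons are kept. Neurons add regulators of their own, and several families hold both a broadly expressed member and neuron-enriched paralogs. The best known exchange is in the polypyrimidine tract-binding proteins: Ptbp1 of progenitors and glia represses an exon of Ptbp2, the skipped mRNA is degraded, and Ptbp2 takes over when Ptbp1 falls during neuronal differentiation. Members of the set also act on SMN2, an exon of which is silenced by hnRNP A1 and by Sam68, the product of Khdrbs1.

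Promoter sequences give the genomic context of the exchange pair, and of the hnRNP and the neuronal regulator with the lowest ratios between the replicates. Starts and sequences are from RefSeq on build GRCm38.p6, where 39 of the 46 genes were matched and 7 were not. Each line gives the 120 bases before the annotated start, 5′ to 3′ on the gene's strand. Capitals mark matches on either strand to a GC box (GGGCGG), an ETS core (CCGGAA), an E-box (CACGTG) or a TATA box (TATAAA).
Ptbp1: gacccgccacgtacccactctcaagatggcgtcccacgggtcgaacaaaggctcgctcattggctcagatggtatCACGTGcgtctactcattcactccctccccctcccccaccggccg
Ptbp2: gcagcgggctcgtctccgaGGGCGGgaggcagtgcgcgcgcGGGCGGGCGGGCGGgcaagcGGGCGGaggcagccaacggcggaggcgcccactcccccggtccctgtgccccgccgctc
Elavl3: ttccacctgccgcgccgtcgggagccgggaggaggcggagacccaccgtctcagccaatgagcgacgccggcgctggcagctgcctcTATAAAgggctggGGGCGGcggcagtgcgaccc
Hnrnpa0: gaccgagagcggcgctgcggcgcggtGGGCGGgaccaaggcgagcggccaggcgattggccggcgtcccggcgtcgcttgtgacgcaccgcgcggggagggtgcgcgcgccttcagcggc
These lie at chr10:79854312-79854431 on the plus strand for Ptbp1, and on the minus strand at chr3:119783389-119783508 for Ptbp2, chr9:22052024-22052143 for Elavl3 and chr13:58128557-58128676 for Hnrnpa0. The Ptbp1 window held an E-box and no GC box, and the Ptbp2 window a cluster of GC boxes that partly overlap.

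Over the table's windows of 300 bases (250 before and 50 after each start), base composition and motif content were counted. Median GC content was 64.8% at the 26 hnRNP starts, 58.7% at the 33 neuronal starts and 60.2% at the 14 other starts, against 52.7% over all 32851 starts. A GC box was present in 76.9% of hnRNP, 48.5% of neuronal and 57.1% of other windows, and in 35.7% of all windows. The ETS core was found in 34.6% of hnRNP, 3.03% of neuronal and 7.14% of other windows, and in 14.9% of all. E-boxes were found in 19.2%, 0% and 14.3% of these windows, with 7.15% of all, and TATA boxes in 7.69%, 9.09% and 14.3%, with 13.6% of all. Genes with several starts count more than once, and a match is a description of the letters and not of binding.

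Levels were compared between genes as coding density, the footprints in CPM (counts scaled to a common library total) per kilobase of coding sequence. hnRNPs stood highest. Their median coding density was 260 ± 5.33 (SD of the replicate medians, n = 2), against 150 ± 12.6 for the neuronal regulators, 140 ± 34.8 for the other regulators and 25.2 ± 1.86 over the 13317 coding genes tested. Each median is taken over the genes' means of both replicates, and need not lie between the replicate medians. The neuronal medians within replicates 1 and 2 were 172 and 154, both above 150. Within single replicates the hnRNP median exceeded the neuronal median by 1.53-fold in replicate 1 and by 1.66-fold in replicate 2. Genes of a class are not replicates of it, so these medians carry no test.

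Nearly all of the set lay in the upper part of the brain's translated genes. Of the 46 genes, 45 were above the median coding gene and 24 were above the 90th percentile. The exception was Ptbp3, at percentile 48.5. Together the 46 genes took 1.21% of the footprints in replicate 1 and 1.29% in replicate 2. The hnRNPs alone took 0.693% and 0.699%, the neuronal regulators 0.254% and 0.261%, and the other regulators 0.262% and 0.328%.

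**Figure D1:**
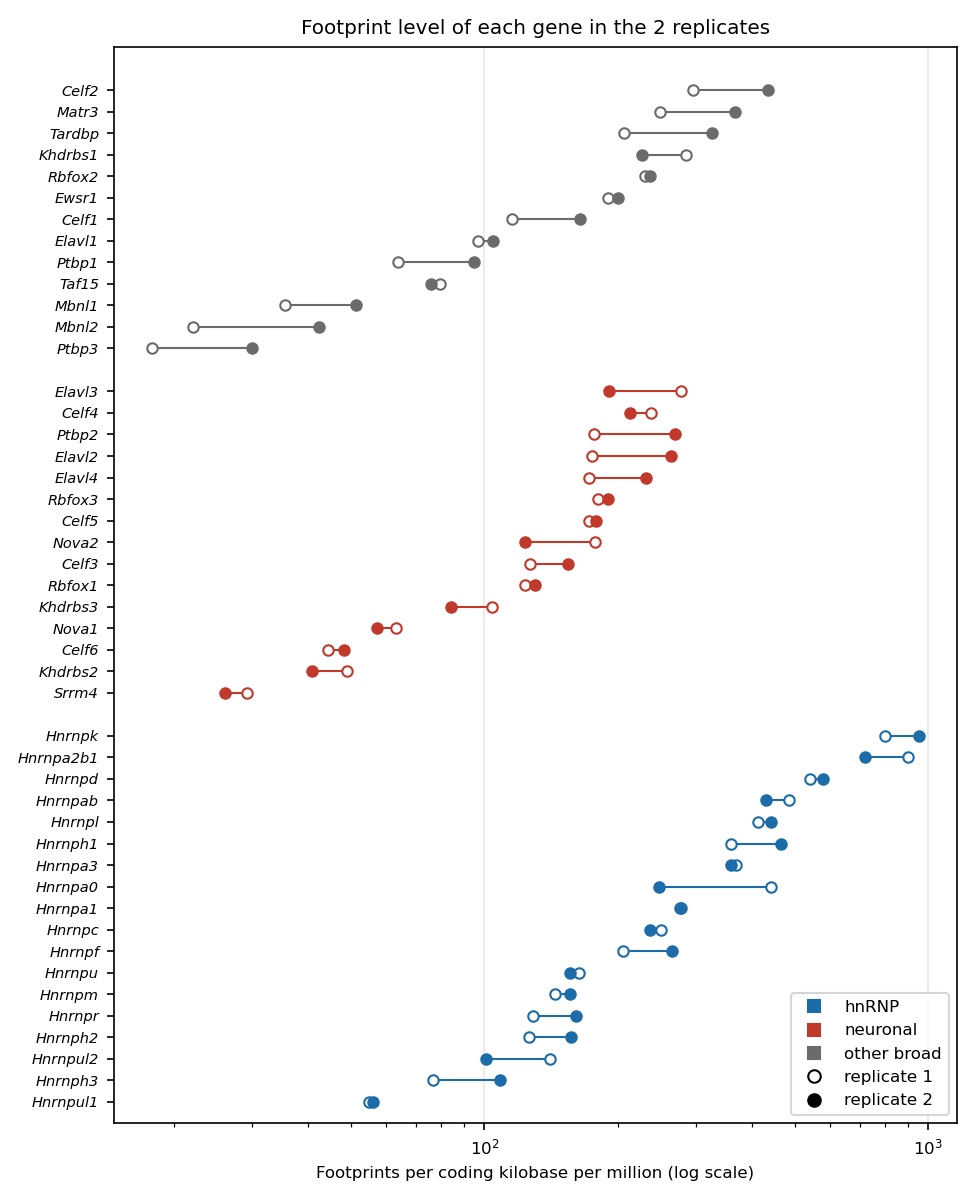
Coding density of the 46 genes (CPM per coding kilobase, log scale) in replicate 1 (open circles) and replicate 2 (filled circles), in 3 classes by colour. Hnrnpk and Hnrnpa2b1 lead at 876 and 811 on average, and Ptbp3 and Srrm4 stand lowest at 23.9 and 27.6.

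Hnrnpk, which binds C-rich RNA and DNA, had 1616 footprints in replicate 1 and 5413 in replicate 2, and a coding density of 801 and 951. Hnrnpa2b1, an RNA transport and splicing factor of the A/B group, had 1668 and 3753 footprints and a coding density of 902 and 720. Their order differed between the animals, so the pair was not separated by this measure, which counts all annotated transcripts. Retained introns held 25.7% of Hnrnpk's footprints on average and 0% of Hnrnpa2b1's. On coding transcripts alone Hnrnpa2b1 was ahead in both animals. Hnrnpd (AUF1, a regulator of mRNA decay) followed at 561 ± 26.4 (SD, n = 2), then Hnrnpab at 458 ± 39.1 and Hnrnpl at 428 ± 21.0. On coding transcripts alone Hnrnpd was below Hnrnpab in both animals, at 13.5% and 16.8% of the A/B and D group against 17.2% and 17.8%.

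Within the A/B group, Hnrnpa1 was not the leading gene. It had 543 and 1524 footprints, and its coding density of 277 in replicate 1 and 276 in replicate 2 was below that of Hnrnpa3 (364 ± 6.11, SD, n = 2). Hnrnpa2b1 exceeded it 3.25-fold in replicate 1 and 2.61-fold in replicate 2. Fragments of Hnrnpa1 can match its processed pseudogenes, so its count is uncertain. The annotated pseudogene Hnrnpa1l2-ps held 104 footprints in replicate 1 and 220 in replicate 2.

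The F/H group, which binds G-rich runs, kept nearly fixed proportions. Hnrnph1 held 51.8% of the group's footprints in replicate 1 and 52.0% in replicate 2. Hnrnpf held 22.9% and 22.8%, Hnrnph2 17.9% and 17.1%, and Hnrnph3 7.37% and 8.05%. All 4 pairs of Clopper-Pearson 95% intervals overlapped. Per coding kilobase Hnrnph1 exceeded Hnrnph2 2.85-fold and 2.99-fold. This lead was gone on coding transcripts alone. Hnrnpf then came first with 40.8% of the group, and Hnrnph1 and Hnrnph2 held 24.3% and 24.6%.

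The U group, nuclear scaffold proteins with long coding sequences, ranked lower. Hnrnpu had a coding density of 160 ± 5.58 (SD, n = 2), Hnrnpul2 of 121 ± 28.4 and Hnrnpul1 of 55.6 ± 0.854, the lowest of the hnRNPs. On coding transcripts alone Hnrnpu and Hnrnpul2 held 40.1% and 40.8% of the group. Hnrnpc, an hnRNP that measures RNA length and shields cryptic exons, had 243 ± 9.47. Hnrnpm had 150 ± 8.39 and Hnrnpr 145 ± 23.0.

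Ptbp2 was the main polypyrimidine tract-binding protein on these polysomes. Ptbp1 had 168 footprints in replicate 1 and 703 in replicate 2, Ptbp2 had 429 and 1840, and Ptbp3 had 49 and 232. Ptbp2 led in both animals and Ptbp3 was lowest in both. Per coding kilobase Ptbp2 exceeded Ptbp1 2.76-fold in replicate 1 (95% interval of counting error 2.30 to 3.32) and 2.83-fold in replicate 2 (2.59 to 3.09). It exceeded Ptbp3 by 9.91-fold and 8.97-fold. Its share of the family was 68.3% ± 0.0546 (SD, n = 2), with 24.4% ± 0.446 for Ptbp1 and 7.25% ± 0.501 for Ptbp3. One age was sampled, so the share is a state on postnatal day 5 and not a course, and fewer cells with Ptbp1 cannot be told apart from fewer footprints per cell in a whole brain.

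The family proportions held although each PTBP gene differed between the libraries. Ptbp1, Ptbp2 and Ptbp3 were all higher in replicate 2, at log2 ratios of 0.44, 0.48 and 0.61 (Benjamini-Hochberg p = 0.00277, 7.4e-09 and 0.0343, two-sided exact binomial). The plain count share of Ptbp2 was 66.4% (62.6 to 70.05) in replicate 1 and 66.3% (64.5 to 68.1) in replicate 2.

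**Figure D2:**
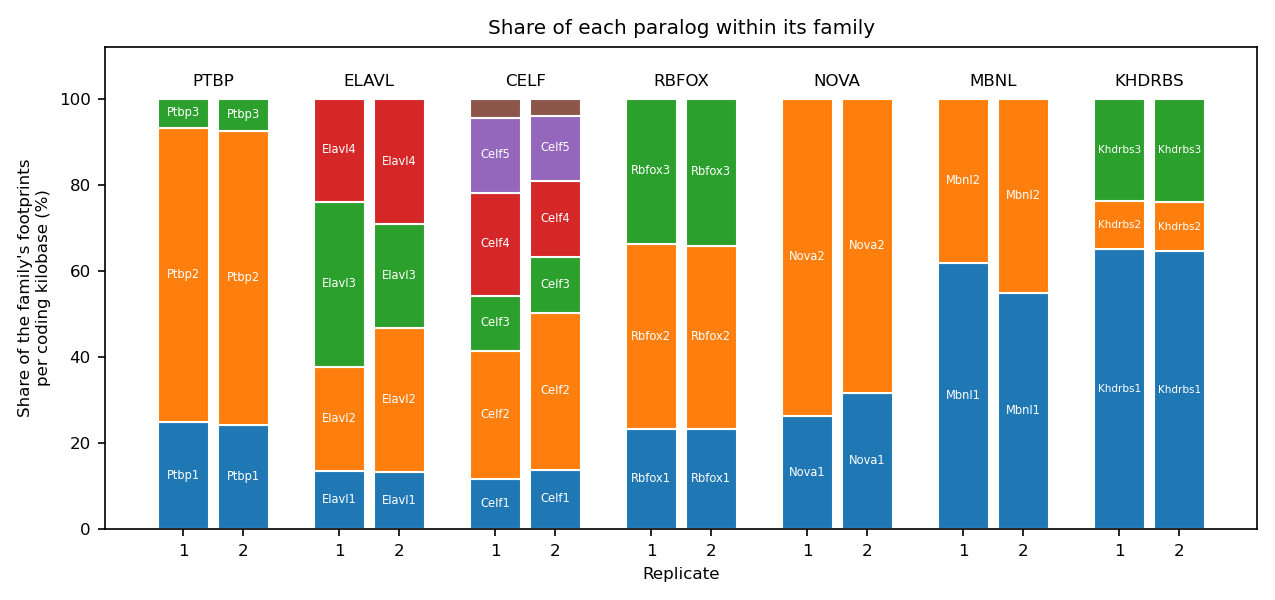
Share of each paralog in the footprints of its family, per coding kilobase (percent, stacked bars), in replicates 1 and 2. Ptbp2 takes 68.3% in both bars of its family, whereas Elavl3 goes from 38.4% to 24.2%; the unlabelled top segment of CELF is Celf6, at 4.49% and 4.05%.

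Among the Hu proteins, which bind AU-rich RNA, the neuronal Elavl2, Elavl3 and Elavl4 each exceeded the broadly expressed Elavl1 (HuR) in both animals by coding density. Divided by the summed length of all annotated transcripts, Elavl1 (17.9% and 22.7% of the family) exceeded Elavl2 (6.14% and 10.9%) and Elavl4 (6.69% and 10.5%). Elavl3 (69.2% and 55.9%) remained above it. Elavl1 had 177 and 540 footprints and a coding density of 96.6 and 105. The 3 neuronal genes ranged from 172 to 277 in replicate 1 and from 191 to 264 in replicate 2. Their own order was not stable. Elavl3 (570 and 1110 footprints) was first in replicate 1 and last of the 3 in replicate 2, while Elavl2 (343 and 1462) was within 3 units of Elavl4 in replicate 1 and first in replicate 2. Elavl4 (337 and 1274) held 23.6% of the family's count and then 29.05%. Elavl1 held 12.4% (10.7 to 14.2) and 12.3% (11.4 to 13.3), the one member of the family whose intervals overlapped.

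The CELF family, regulators of splicing and mRNA stability, was led by Celf2 with 767 and 3190 footprints. Its coding density was 295 in replicate 1 and 435 in replicate 2. It exceeded that of Celf1 (115 and 164) by 2.56-fold and 2.64-fold. On coding transcripts alone Celf4 was ahead of Celf2 in replicate 1, at 28.9% against 27.5% of the family, and Celf2 in replicate 2, at 35.6% against 21.4%. Celf4, a neuronal member, had 657 and 1661 footprints and a coding density of 237 and 213. Celf5 had 175 ± 5.03 (SD, n = 2) and Celf3 140 ± 19.2, and Celf6 was lowest in both animals, at 44.4 and 48.3. Celf1 and Celf3 changed places between the animals (115 against 127 in replicate 1, 164 against 154 in replicate 2), and their mean densities did not differ beyond the spread.

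The RBFOX proteins, which read a shared short motif, kept nearly the same proportions in both animals. Rbfox1 had 282 and 833 footprints, Rbfox2 had 532 and 1535, and Rbfox3 (NeuN, the standard marker of mature neurons) had 321 and 954. The order by coding density was the same in both animals, with Rbfox2 at 233 ± 3.86 (SD, n = 2), Rbfox3 at 185 ± 6.94 and Rbfox1 at 127 ± 4.20. None of the 3 was called as different between the libraries.

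Nova2 exceeded Nova1, its paralog and like it a neuronal regulator, with 523 and 1023 footprints against 180 and 459. The ratio per coding kilobase was 2.81 in replicate 1 and 2.15 in replicate 2. Muscleblind genes, whose proteins favour mature splicing patterns, were low: Mbnl1 had 63 and 256 footprints and Mbnl2 had 45 and 244. Their coding densities were 35.6 and 51.3 for Mbnl1 and 22.0 and 42.3 for Mbnl2. On coding transcripts alone Mbnl1 held 53.1% and 47.1% of the pair, so the order differed between the animals. The KHDRBS (STAR) family kept its proportions, with Khdrbs1 at 71.9% and 71.5% of the count, Khdrbs3 at 20.6% and 20.7% and Khdrbs2 at 7.54% and 7.82%. Per coding kilobase Khdrbs1 exceeded Khdrbs3 2.73-fold and 2.70-fold. They held 43.6% and 38.8% of the family on coding transcripts alone.

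Srrm4 (nSR100), the activator of neuronal microexons, was among the lowest of the set. It had 90 footprints in replicate 1 and 227 in replicate 2, and a coding density of 29.1 and 26.05. Hnrnpk exceeded it 27.5-fold and 36.5-fold. The remaining broad regulators included Matr3 (880 and 3662 footprints; 307 ± 83.5 per coding kilobase) and Tardbp, which encodes TDP-43 (353 and 1569; 266 ± 84.1). Ewsr1 and Taf15, which encode related RNA-binding proteins, had 195 ± 7.71 and 77.7 ± 2.65 (SD, n = 2).

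In the 7 families of paralogs, which hold 23 of the genes, 5 kept the same order by coding density in both animals. ELAVL and CELF did not. The first member depended on the length used in several of them. With footprints divided by the summed length of all annotated transcripts of a gene, which weighs against genes with many transcripts, the first member became Celf4, Rbfox1, Mbnl2 and Khdrbs3. Per kilobase of transcript, which includes the untranslated regions, it became Elavl2 and Rbfox3. Ptbp2 and Nova2 came first in all 5 ways of counting.

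The libraries were then compared gene by gene, which asks how far the values of 1 animal hold in the other. Each gene's counts were set against the ratio of effective library sizes by TMM (trimmed mean of M values) scaling in a two-sided exact binomial test, adjusted by the Benjamini-Hochberg method over 16427 genes. It covers counting noise alone and compares 2 libraries, not conditions. Log2 ratios are replicate 2 over replicate 1.

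Of the 46 genes, 24 were called at an adjusted p under 0.05, 14 higher and 10 lower in replicate 2. Over all genes tested 17.4% were called, 5.95% higher and 11.5% lower. Since counts decide what can be called, the share was also set against the 7050 genes averaging no fewer counts than Khdrbs2. Of these 32.3% were called, 9.99% higher and 22.3% lower. They share only this floor with the set and are not matched to it in count. Their median coding density was 61.4, against 180 for the 46 genes, so these shares do not show an excess of calls in the set. The median log2 ratio was -0.038 for the set, -0.050 for those 7050 genes and 0.0056 for all tested. It was -0.062 for the 18 hnRNPs (4 called higher, 5 lower) and -0.067 for the 15 neuronal regulators (3 higher, 4 lower). For the 13 others it was 0.40 (7 higher, 1 lower). These classes also differ in annotated transcripts per gene, with medians of 5.5, 5 and 13, and the ratio moved with that number, as described below. With plain library totals, which raise every log2 ratio by 0.13, the hnRNP and neuronal medians became 0.064 and 0.058. Library totals gave 25 calls in the set, 18 higher and 7 lower, where 19.0% of all genes were called, 11.5% higher and 7.47% lower. With edgeR's exact test, which adds a dispersion estimated from the same pair of libraries, 0 of the 46 were called and 1 had an unadjusted p under 0.05, where 0.0670% of all genes were called.

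Hnrnpa0, an hnRNP encoded by a gene with a single annotated transcript, had the lowest ratio. It had 758 footprints in replicate 1, or 406 CPM (95% interval 378 to 436). It had 1195 in replicate 2, or 227 CPM (214 to 240). The intervals were apart, with a log2 ratio of -0.96 (adjusted p = 1.2e-41, exact binomial). Elavl3 followed at -0.66, with 305 CPM (281 to 331) against 211 CPM (199 to 224). Nova2 had a log2 ratio of -0.65, with 280 CPM against 194 CPM, and Hnrnpul2 of -0.61, with 315 CPM against 225 CPM. Hnrnpa2b1 had -0.45, with 893 CPM against 713 CPM. All 5 were lower in replicate 2 with library totals too.

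At the other end was Mbnl2, at 24.1 CPM (17.6 to 32.2) against 46.4 CPM (40.7 to 52.6). Its log2 ratio was 0.81 (adjusted p = 0.00302, exact binomial). Ptbp3 followed at 0.61, Tardbp at 0.53, Ptbp2 at 0.48 and Elavl2 at 0.47. Tardbp had 189 CPM (170 to 210) against 298 CPM (284 to 313). Ptbp2 had 230 CPM (209 to 253) against 350 CPM (334 to 366), and Elavl2 had 184 CPM (165 to 204) against 278 CPM (264 to 292). In each of these genes the replicate intervals were apart, and library totals gave the same direction for these 5. With the highest transcript of each gene, Ptbp2 kept its call. Mbnl2, Ptbp3, Tardbp and Elavl2 lost theirs, at adjusted p = 0.0531, 0.745, 0.331 and 0.237 in the exact binomial. Ptbp3 also lost it when all genes with at least 1 count were tested (adjusted p = 0.0533, exact binomial).

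The other called genes with a higher level in replicate 2 were Ptbp1, Matr3, Celf2, Celf1, Hnrnph3, Elavl4, Hnrnph1, Hnrnpf and Hnrnpk, with log2 ratios from 0.12 to 0.44. The other called genes with a lower level were Khdrbs1, Khdrbs3, Hnrnpab, Celf4 and Hnrnpu, from -0.45 to -0.20. Hnrnpa1 (-0.13), Hnrnpc (-0.21), Ewsr1 (-0.045), Elavl1 (-0.012) and the RBFOX genes were among the 22 that were not called. These values miss the threshold, which does not show that the levels were equal.

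The ratio between the replicates moved with the number of transcripts annotated for a gene. All 6 genes with 1 annotated transcript had a log2 ratio below 0 with TMM scaling, with a median of -0.52, and 4 of them were called lower. With library totals Elavl1, at 0.11, was the one of the 6 above 0. The 9 genes with 2 or 3 transcripts had a median of -0.21 and the 12 genes with 4 to 9 a median of -0.13. The 15 genes with 10 to 19 transcripts had a median of 0.25, with 9 called higher and 0 called lower. The 4 with 20 or more (Hnrnpk, Mbnl1, Celf2 and Tardbp) had a median of 0.42. Mbnl2, with 2 transcripts, stood apart from this order.

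The same order was present in the 7050 genes of at least that count, more weakly. Their medians in these ranges were -0.38, -0.17, 0.04, 0.17 and 0.33. Spearman's rho between log2 ratio and number of transcripts was 0.751 across the 46 genes and 0.561 across the 7050. These are correlations across genes of 1 pair of libraries, given as a description. Footprints per nucleotide of annotated transcript, with all transcripts of a gene summed in length, also moved with the ratio (rho = -0.611 across the 46 genes). The summed length grows with the number of transcripts, so this relation and that with the number of transcripts are linked by construction. With the density trend removed, rho with the number of transcripts was 0.659 across the 46 genes and 0.367 across the 7050. Genes with few transcripts and dense footprints were those with the lower ratios in the deeper library.

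**Figure D3:**
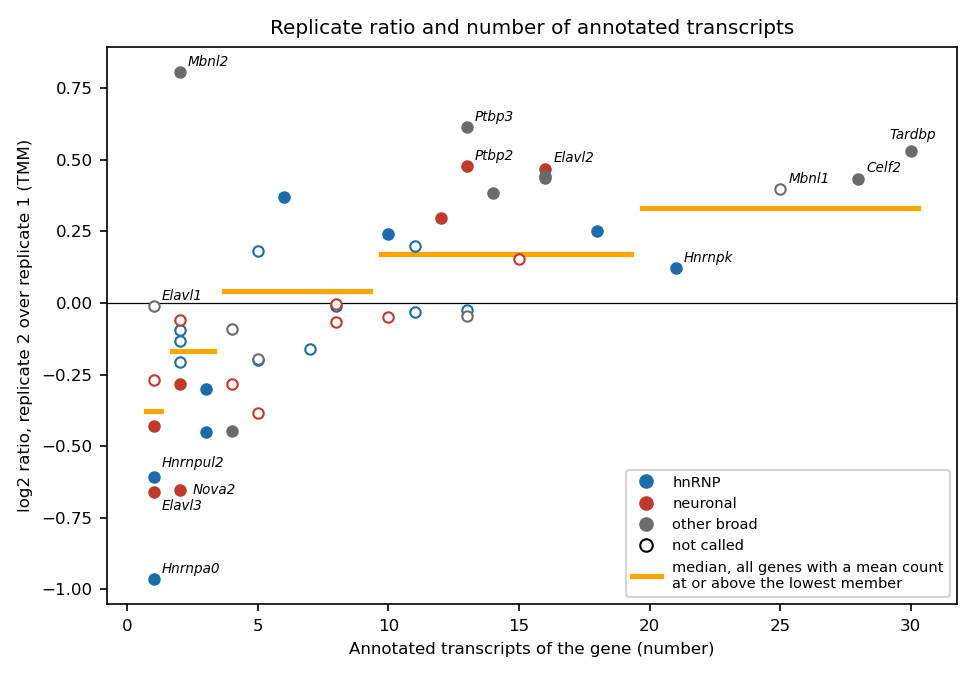
Log2 ratio of replicate 2 over replicate 1 (TMM scaling) against the number of annotated transcripts for the 46 genes, filled where called by the exact binomial test. Orange bars give the median of all genes of at least the lowest count in the same range of transcript numbers, rising from -0.38 to 0.33; Mbnl2, at 0.81, lies far above its range.

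When the trend with footprints per nucleotide was removed from all genes, 17 of the 46 were called higher and 5 lower, where 5.37% of all genes were called higher and 6.67% lower. Of the 24 called before, 18 were called in the same direction. The 5 that remained lower were Nova2 (-0.58), Hnrnpa0 (-0.50), Elavl3 (-0.44), Hnrnpul2 (-0.39) and Khdrbs1 (-0.29). Ptbp1 and Ptbp2 remained higher, at 0.39 and 0.55, whereas Ptbp3 (0.44, adjusted p = 0.197, exact binomial) was no longer called. Hnrnpab turned from -0.30 to 0.16 and was called both times. Hnrnpa2b1 went from -0.45 to 0.011. The median log2 ratio became 0.12 for hnRNPs, -0.10 for neuronal regulators and 0.29 for the other regulators. The rho with the number of transcripts was 0.659 after this step.

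Representing each gene by its highest transcript reduced the calls to 10, of which 2 were higher, where 9.41% of all genes were called. Lists of cell type markers also differed between the animals. Their calls are from the exact binomial test with all transcripts summed and TMM scaling. There 17.4% of all genes tested were called, 5.95% higher and 11.5% lower. Of the 7050 genes at or above the count of Khdrbs2, 32.3% were called, 9.99% higher and 22.3% lower. All 8 neuronal markers were lower in replicate 2 with TMM scaling (6 with library totals, where Map2 and Dcx were above 0), 6 were called, and their summed level was 0.632% of footprints in replicate 1 and 0.488% in replicate 2. Their median log2 ratio was -0.56, and -0.22 with the density trend removed. All 4 forebrain markers were called lower, at 0.0739% and 0.0496%, and none of 4 markers of cerebellar granule cells was called, at 0.0422% and 0.0481%. Progenitor markers summed to 0.0272% and 0.0274%, but 3 of the 6 were called, Sox2 (-0.77) and Hes5 (-0.78) lower and Pax6 (0.67) higher. Astrocyte markers summed to 0.167% and 0.168%, with Gja1 (-0.52) called lower among 6. Of 6 oligodendrocyte lineage markers 2 were called higher and 2 lower, and the sum was 0.0788% and 0.0967%. Of 5 microglial markers 1 was called higher and 2 lower. Of 4 red cell markers 3 were called lower, at 0.186% and 0.129%. Of 4 endothelial markers 1 was called lower. The part of tissue composition in the differences of the 46 genes was not tested. The defining genes of liver, Alb and Apoa2, had 0 footprints in both libraries, as had Esrp1, an epithelial splicing regulator, and A1cf. In the same lists the muscle gene Acta1 had 140 and 264 footprints and was called lower (-0.70), Ckm had 3 and 4, Rbm24 had 24 and 49, Rbm20 had 2 and 18, and Esrp2 had 1 and 1.

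Other hnRNP-like proteins and splicing regulators, 34 genes outside the set, were set beside them. In this list 33 passed the filter and 17 were called, 10 higher and 7 lower, where 17.4% of all genes and 32.3% of the 7050 genes were called, with a median log2 ratio of 0.15 (0.27 with library totals). Their median coding density was 99.1 ± 7.71 (SD, n = 2), and 32 of the 33 were above the median coding gene. The poly(C)-binding Pcbp2 had a coding density of 288 ± 27.4. Srrm3, the paralog of Srrm4, had 33.2 ± 5.24. Mbnl3 had 2 footprints in replicate 1 and 9 in replicate 2 and did not pass.

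Many splicing regulators control their own level through exons or introns that expose the mRNA to decay. Annotated transcript classes were therefore compared. Of the footprints on the 46 genes, 82.4% ± 1.19 (SD, n = 2) were assigned to transcripts annotated as protein coding, 7.03% ± 0.349 to retained introns and 5.43% ± 0.364 to targets of nonsense-mediated decay. Over all genes of the table the shares were 75.5% ± 1.09, 9.36% ± 0.387 and 3.97% ± 0.383. Since transcripts of different classes overlap within a gene, a footprint counted on one class need not come from it.

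The 13 other broad regulators had the highest share on decay targets, 11.8% ± 1.08 (SD, n = 2), against 3.41% ± 0.519 for hnRNPs and 3.71% ± 0.528 for neuronal regulators. They also had the most annotated decay targets, 18 (10 of them in Tardbp) against 7 for hnRNPs and 4 for neuronal regulators. The shares are not corrected for this annotation. Such a transcript was annotated in 12 of the 46 genes. The share was 42.6% ± 0.0140 in Khdrbs1, 38.7% ± 6.04 in Celf6, 37.1% ± 1.22 in Tardbp, 27.7% ± 0.375 in Hnrnpd, 25.3% ± 1.21 in Ptbp2, 21.2% ± 0.869 in Hnrnph3 and 19.0% ± 2.48 in Ptbp1. TDP-43 and PTBP1 are textbook cases of such self-limitation, which these shares do not measure.

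In Ptbp2 the decay target Ptbp2-008, with a coding sequence of 1071 nucleotides, held 82 footprints in replicate 1 and 347 in replicate 2. The coding transcripts Ptbp2-201 and Ptbp2-001 held 82 and 420, and 78 and 373. In Ptbp1 the decay target Ptbp1-008 held 25 and 77, beside 19 and 96 on Ptbp1-001 and 25 and 91 on Ptbp1-002. In both genes the decay target named, 1 of 2 annotated in Ptbp2 and 1 of 3 in Ptbp1, had a count near that of the coding transcripts named. Transcripts of a gene overlap, so near counts do not show that the decay target itself was translated.

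Retained introns were annotated in 22 of the genes. Their share was highest in Ptbp1, at 32.0% ± 2.77 (SD, n = 2), then 25.7% ± 0.00724 in Hnrnpk, 25.3% ± 3.44 in Srrm4, 23.7% ± 2.06 in Celf3 and 23.4% ± 1.71 in Hnrnpl. Hnrnph1 differed from all of these: 33.8% ± 1.80 of its footprints lay on coding transcripts and 66.2% on processed transcripts, of which 15 of its 18 annotated transcripts consist. The genes with 100% on coding transcripts, such as Hnrnpa0, Hnrnpa2b1, Elavl1, Elavl3 and Nova2, have no other class annotated.

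**Figure D4:**
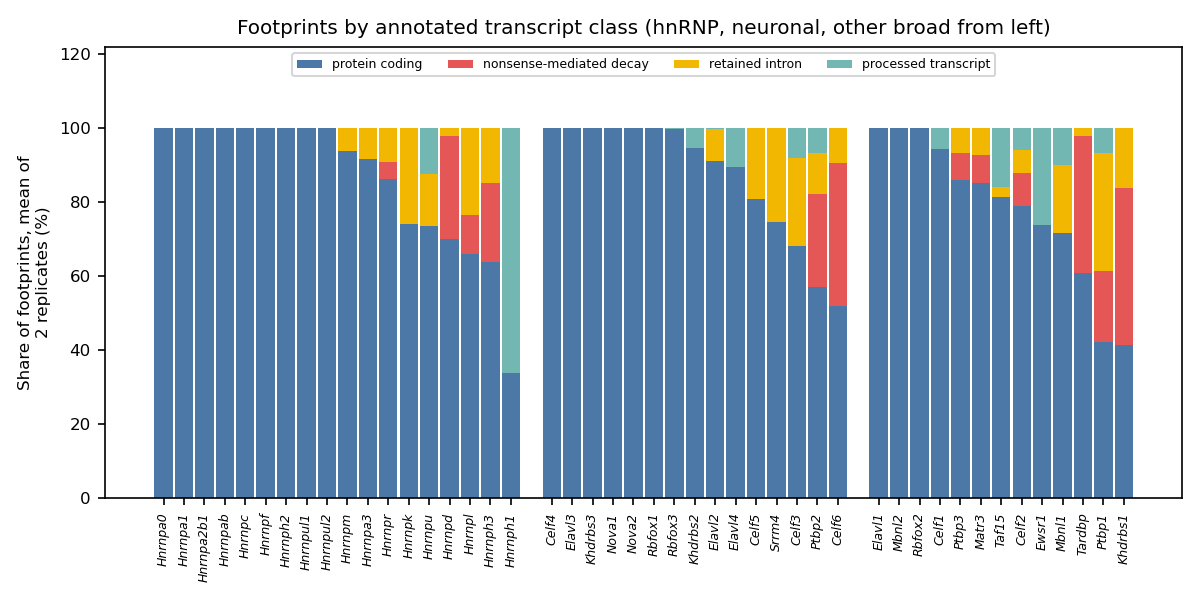
Share of each gene's footprints by annotated transcript class (percent, mean of 2 replicates, stacked bars), ordered within hnRNPs, neuronal regulators and other broad regulators by the coding share. Coding shares run from 100% to 33.8% in Hnrnph1, and decay targets reach 42.6% in Khdrbs1.

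The classes also differed in transcript structure. The median 3′ untranslated region was 852 nucleotides for hnRNPs, 1717 for neuronal regulators and 2401 for the other regulators, against 882 over the coding genes tested. The median 5′ untranslated region was 201, 295 and 192 nucleotides, against 169. Median coding lengths were 1073, 1180 and 1395 nucleotides, against 1311. Rbfox2, Nova1, Nova2, Hnrnpu, Srrm4, Hnrnpr, Elavl1 and Celf1 each had a 3′ region of 4755 to 5452 nucleotides, averaged by counts, and for such genes a level per transcript kilobase is far below a level per coding kilobase.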

How the data were processed

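Ribosome-protected fragments were counted in 2 control brains, 1 group. The authors deposited whole-number counts per transcript without normalization, beside annotated lengths in nucleotides. Trimmomatic 0.36, Bowtie2 2.2.6, SAMtools and build GRCm38.p4 are named, without their roles, per the submitters' processing notes; the treatment of duplicate and multi-matching fragments and of strand is not given in the sources used here. Genes were matched by transcript name without its number, and counts summed per gene. CPM is per library total; coding density divides it by the count-weighted mean coding length of the coding transcripts.

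A two-sided exact binomial test (scipy 1.17.1, Benjamini-Hochberg over the genes averaging 10 or more counts) used TMM factors of 0.957 and 1.04 from edgeR 4.0.16, with a prior of 0.5 CPM in log2 ratios. With 1 library on each side, edgeR's quasi-likelihood fit has no residual degrees of freedom. Intervals are exact Clopper-Pearson 95% intervals and cover counting error only. The test was checked on simulated data with counting noise alone and no trend. That check does not cover the further spread or the trend of these libraries.

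The genes and lists were chosen with earlier results of these data known. Full values were given for paralog families, the 5 highest and 5 lowest called ratios and the extremes of level. Binomial p-values set the difference between these libraries against counting noise alone and measure no spread between animals. Alternatives were other scalings (DESeq2 1.42.0), filters, lengths, transcript choices, removal of the trend over 20 bins of footprints per nucleotide, and edgeR's exact test.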

Additional observations from a re-analysis of the deposited data

How the results depend on the processing

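No paired analysis was possible because the series has 1 group and no contrast. The number of the 46 genes called stayed within 1.5 times of 24 with DESeq2 size factors, library totals, both other count filters, coding transcripts alone and the trend removed. It was 10 with the highest transcript per gene, 2 of them higher, where 9.41% of all genes were called, and with the trend removed 5 were lower in place of 10. With edgeR's exact test at the common dispersion it was 0, where 1 of the 46 had an unadjusted p under 0.05 and 11 of 16427 genes were called, at a dispersion estimated from the same 2 libraries. The median log2 ratio of -0.038 became 0.088 with library totals, 0.073 with the trend removed and -0.012 on coding transcripts. The ratio of Hnrnpa2b1 turned from -0.45 to 0.011 with the trend removed.

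The medians of coding density for hnRNPs, neuronal and other regulators (260, 150 and 140) depend on the length by construction. They were 126, 60.04 and 57.1 per transcript kilobase and 33.3, 10.8 and 5.98 per kilobase of all annotated transcripts summed, a setting chosen after the data were examined. The hnRNP median was 251 with the longest coding sequence. On coding transcripts alone the hnRNP and neuronal medians were 316 and 170. The ratio of the hnRNP to the neuronal median was 1.73 with medians over the genes' means, above the ratio within either replicate. It was 2.09 and 3.08 in the first pair of settings and 1.86 on coding transcripts. Leaving out 1 replicate at a time gave hnRNP medians of 256 to 263, neuronal medians of 154 to 172, other medians of 115 to 164 and ratios of 1.53 to 1.66.

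The Ptbp2 share of 68.3% was 66.4% by plain counts, 66.02% per transcript kilobase, 70.1% on coding transcripts and 69.8% per summed transcript length, and 68.3% without either replicate. Khdrbs1 fell from 64.8% of its family to 43.6% on coding transcripts and 40.7% per summed transcript length, and Mbnl1 from 58.3% to 15.9% per summed transcript length. Counts per transcript kilobase gave shares of 68.7% for coding transcripts, 13.6% for retained introns and 7.07% for decay targets, and single replicates gave 81.6% to 83.3%, 6.79% to 7.28% and 5.18% to 5.69%. With 1 pair of animals, biological and technical spread cannot be told apart.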
